A study of Homo sapiens with 4 samples.

Results

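The F-box genes followed here were the 63 protein-coding genes, of 20007 in GENCODE release 44, whose symbol starts with FBXO, FBXL or FBXW and a digit. There were 36 FBXO, 17 FBXL and 10 FBXW genes. For each gene the body with 10 kb on each side was taken as its domain, and every peak that overlapped the domain by at least 1 bp was collected. The 63 domains merged into 60 regions of 5.45 Mb, because the domains of FBXO2, FBXO44 and FBXO6 run into each other, as do those of FBXO17 and FBXO27. The membership rule used gene names alone and no measured value.

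Peaks came from chromatin immunoprecipitation and sequencing in RD cells, a cell line of fusion-negative rhabdomyosarcoma, a tumor of the skeletal muscle lineage. The control cells (shSCR) carried a scrambled shRNA and their genotype is given as WT. The SKP2 knockdown cells (shSKP2) carried an shRNA against SKP2, and both arms shared the same line and culture medium. MYOD and the histone mark H3K27ac were each profiled once per arm, so each of the 4 groups holds 1 of the 4 libraries. No difference below has a replicate check, no test between arms was possible, and each interval covers counting error only. RD is a single established line, so nothing here shows how F-box genes behave in another tumor.

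F-box proteins are the exchangeable substrate receptors of the SCF ubiquitin ligase. The F-box motif docks onto SKP1 and through it onto CUL1, and the rest of the protein picks the target that is to be ubiquitinated. FBXW proteins do so with WD40 repeats, FBXL proteins with leucine-rich repeats, and FBXO proteins with other domains. SKP2 is itself an F-box protein of the leucine-rich repeat type whose symbol does not follow this naming. In skeletal muscle the family is known best for atrogin-1, the product of FBXO32, which is induced when muscle wastes. MYOD is a basic helix-loop-helix factor that drives the muscle program from E-boxes, short DNA motifs with the letters CANNTG, and H3K27ac marks active promoters and enhancers.

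The deposited lists held 25356 H3K27ac peaks in the control and 38457 after knockdown, and 5814 and 8457 MYOD peaks. The lowest local background found in a list, which stands in for depth, was 1.75 and 1.61 fragments for H3K27ac and 1.48 and 1.94 fragments for MYOD. The knockdown H3K27ac list was longer although its lowest background was slightly lower, and its peaks were wider, with a median width of 487 bp against 363 bp. The lowest value does not describe the background at the peaks. At H3K27ac peaks of the F-box domains found in both lists, the local background was often higher after knockdown. It was 13.3 in the control and 20.9 after knockdown at the FBXO24 start, but 6.16 and 5.80 at a peak in the FBXO16 domain. Whether depth or background accounts for the longer list was not tested. As a check of the cell label, 7 of 8 skeletal muscle marker genes had a MYOD peak in both lists, MYF5 being the exception, and 4 of 8 had H3K27ac at the promoter in the control and 5 of 8 after knockdown. Of 10 markers of blood, endothelium, epithelium, liver and nervous tissue, 0 had H3K27ac at the promoter in either list, although 7 had a peak somewhere in the domain in the control and 8 after knockdown.

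The MYOD sites that the results turn on are shown first as DNA. Each was chosen because it lies inside a named member or nearest to that member's transcription start site (TSS), and because it marks a different class of site. The letters are the plus strand of hg38, and capitals mark every match to CANNTG in the printed stretch. Kept means that the peak was found in both MYOD lists with an overlap of at least 1 bp. Stretches of 101 bases are centred on the summit of the peak. Stretches of 30 bases hold the CAGCTG nearest to the summit and are given where the summit lies in or beside an untranslated region.
FBXO10, kept, at the TSS, chr9:37576330-37576359: cccgggggcggaCAGCTGcctggggatcgt
FBXO24, kept, at the TSS, chr7:100586361-100586390: tcccgcccagcgCAGCTGcacccaatcaca
FBXL22, kept, downstream, chr15:63611302-63611402: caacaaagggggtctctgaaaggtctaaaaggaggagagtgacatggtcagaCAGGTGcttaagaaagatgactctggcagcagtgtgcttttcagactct
FBXW4, kept, intron 1, chr10:101687216-101687316: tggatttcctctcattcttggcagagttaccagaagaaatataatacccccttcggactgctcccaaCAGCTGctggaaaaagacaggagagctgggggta
FBXL13, kept, intron 17, chr7:102874286-102874386: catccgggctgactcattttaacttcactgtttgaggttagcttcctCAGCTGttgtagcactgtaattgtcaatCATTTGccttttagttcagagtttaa
FBXL13, knockdown-only, intron 12, chr7:102912931-102912960: ggaaaatttcagCAGCTGgggccatgtaat
FBXO42, control-only, exon 1, chr1:16352367-16352396: cggggctcctcaCAGCTGgcgggaccccga
FBXO33, control-only, exon 4, chr14:39398515-39398544: tgagccacagcaCAGCTGtgtaccacaggt
FBXL15, control-only, intron 1, chr10:102421240-102421340: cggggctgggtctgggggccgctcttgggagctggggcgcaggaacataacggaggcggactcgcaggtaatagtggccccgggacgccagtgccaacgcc
FBXL14, knockdown-only, upstream, chr12:1594930-1595030: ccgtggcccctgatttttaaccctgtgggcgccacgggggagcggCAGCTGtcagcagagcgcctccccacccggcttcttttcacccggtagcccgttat
FBXL17, knockdown-only, coding exon 1, chr5:108380649-108380749: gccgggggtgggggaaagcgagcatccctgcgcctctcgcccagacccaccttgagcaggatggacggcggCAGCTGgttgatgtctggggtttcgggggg
FBXO48, knockdown-only, intron 1, chr2:68466989-68467089: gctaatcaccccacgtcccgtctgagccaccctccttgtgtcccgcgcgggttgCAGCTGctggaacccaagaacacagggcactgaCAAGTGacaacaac
FBXO41, knockdown-only, upstream, chr2:73284498-73284598: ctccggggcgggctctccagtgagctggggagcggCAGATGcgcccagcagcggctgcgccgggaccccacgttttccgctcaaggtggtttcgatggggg

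CAGCTG, which reads the same on both strands, stood in 10 of these 13 printed stretches. The shorter stretches were cut to hold this motif, so the count does not measure how often it occurs at MYOD sites. The FBXL22 stretch had CAGGTG, with a CAGCTG outside the stretch but within 100 bp of its summit, and the FBXO41 stretch had CAGATG. The FBXL15 stretch had no E-box, and none was found within 100 bp of its summit either. Among all MYOD peaks of the F-box domains, CAGCTG was found no more than 100 bp from the summit in 9 of 16 control peaks (56.2%, 95% Wilson interval 33.2 to 76.9) and in 12 of 22 knockdown peaks (54.5%, 34.7 to 73.1). Over the whole lists the shares were 64.3% and 60.7%, inside both intervals. CAGGTG or its reverse complement CACCTG was present in 4 of 16 and 7 of 22 peaks, against 41.7% and 45.1% over the whole lists. Any CANNTG, which includes all of these, was present in 12 of 16 control peaks (75.0%, 50.5 to 89.8) and in 21 of 22 knockdown peaks (95.5%, 78.2 to 99.2), beside 94.9% and 93.5% of all MYOD peaks, the former above the interval of the control peaks. The 4 control peaks without an E-box lay at FBXL15, at the SETD1A start inside the FBXL19 domain, beside the FBXO24 start and at LCN12 inside the FBXW5 domain. Their -log10 p values were 6.85, 5.61, 9.35 and 5.60. With a motif this short a match is only a description of the letters.

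The question for H3K27ac was whether the mark covers more or less of the F-box gene domains after SKP2 knockdown. Of 63 members, 51 had more base pairs under an H3K27ac peak in the knockdown list and 4 had fewer, while 8 had no H3K27ac peak in either list. Over all protein-coding genes, 66.8% had more and 3.92% fewer, so most genes moved the way most members did. The merged F-box domains held 48.9 kb of H3K27ac cover in the control and 96.8 kb after knockdown. The median cover of a member was 0.456 kb in the control and 1.27 kb after knockdown, beside 0.369 kb and 0.949 kb over all genes. The 48 members covered in both lists had a median ratio of knockdown to control cover of 1.66, and the 11919 genes covered in both had a median ratio of 1.82. Cover was at least 2-fold higher in 21 of these 48 members and in 5065 of the 11919 genes, about the same share. With lists of equal length 44 members had more cover and 8 had less, and no share over all genes is set beside these counts. The domain of a member was also a little longer than usual, with a median of 56.9 kb against 47.5 kb.

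**Figure D1:**
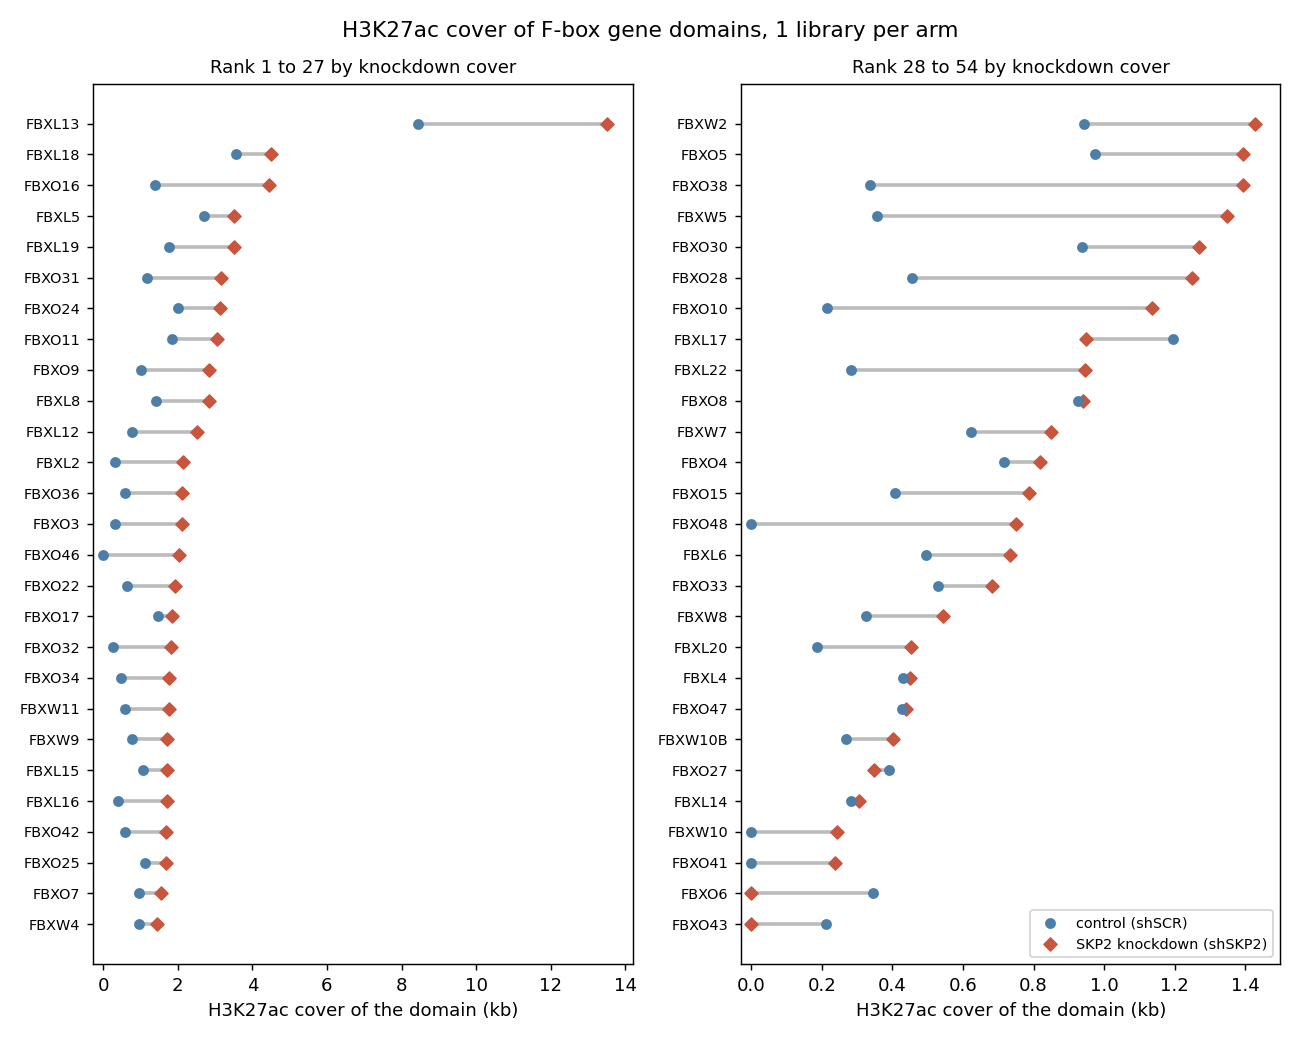
H3K27ac cover of each F-box gene domain in kb (x axis, a different scale in each panel) for members with an H3K27ac peak, ranked by knockdown cover. Circles are the control library and diamonds the knockdown library, with 1 library each. The diamond lies to the right of the circle in all but FBXL17, FBXO27, FBXO43 and FBXO6, and FBXL13, with 8.43 and 13.5 kb, stands far from the rest.

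The knockdown list had both more peaks and wider ones. The control list had 107 H3K27ac peaks in the F-box domains, of which 95 (88.8%, 81.4 to 93.5) were kept and 12 were control-only. The knockdown list had 141, of which 84 (59.6%, 51.3 to 67.3) were kept and 57 were knockdown-only. Over the whole lists 86.4% of control and 51.4% of knockdown H3K27ac peaks were kept. With lists of equal length the domains held 107 control and 101 knockdown peaks. That setting removes knockdown peaks alone, and why the full lists differ in length was not tested. Among 72 pairs of control and knockdown peaks that overlapped each other alone, the knockdown peak was wider in 58 and narrower in 14, with median widths of 647 and 418 bp. Across the genome 83.1% of 17406 such pairs were wider after knockdown, close to the 80.6% of the F-box pairs. In 12 of the 141 knockdown peaks (8.51%) 2 or more control peaks were joined into 1, against 5.54% of all knockdown peaks. FBXO22 was among these. Its 2 control peaks of 311 and 333 bp on either side of the start became a single peak of 1936 bp.

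Promoters were taken as the 2 kb on each side of the TSS. H3K27ac peaks lay at 35 of 63 member promoters in the control and at 46 after knockdown, beside 41.5% and 51.4% of all genes. With lists of equal length the counts were 35 and 38. In 11 members the promoter peak was in the knockdown list alone (all genes 10.7%), among them FBXL2, FBXL8, FBXO16, FBXO27, FBXO3, FBXO41, FBXO46, FBXO48, FBXO9 and FBXW8. The reverse was seen in 0 members (all genes 0.805%). Anywhere in the domain, an H3K27ac peak was present in 50 members in the control and 53 after knockdown (all genes 60.2% and 70.2%). In 5 members, FBXO41, FBXO46, FBXO48 and FBXW10 among them, it was in the knockdown list alone (all genes 10.6%), and in FBXO43 and FBXO6 it was in the control list alone (all genes 0.590%). FBXW10 has a near-identical copy, FBXW10B, so its peak is uncertain. That peak also lay downstream of the gene, 37.3 kb from the FBXW10 start and 0.141 kb from that of TVP23B. Counting only the 2 kb around the TSS, cover was higher after knockdown in 42 members and lower in FBXL17, FBXL5, FBXO34 and FBXW7, beside 47.6% and 4.54% of all genes.

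The members with the largest difference in cover did not all owe it to their own promoter. FBXL13 had the most cover in both lists, 8.43 kb and 13.5 kb, in 19 peaks each. These peaks formed a run through its introns, and the nearest start was that of LRRC17, which lies inside FBXL13, for nearly all of them. A knockdown-only peak of 507 bp in intron 1 of FBXL13 was the one nearest to the FBXL13 start. FBXO16 went from 1.38 to 4.44 kb, mostly over or beside its neighbour ZNF395, and gained a peak of 251 bp at its own start with a fold of 3.45. FBXO9, a receptor linked to the turnover of TELO2 and TTI1, went from 1.01 to 2.85 kb. Of this, 0.903 kb was a knockdown-only peak over its start, where the control had none, and the rest lay upstream at CILK1.

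Among the 5 members with H3K27ac in the knockdown list alone, FBXO46 had the most. It had 0 H3K27ac peaks in the control and 3 after knockdown, all in intron 1, which together covered 2.03 kb. The peak 150 bp from the TSS was 729 bp wide with a fold of 4.42, and the remaining pair, each of 652 bp, lay 12.9 and 13.7 kb into the gene with folds of 3.15 and 4.24. A gene absent from a peak list can still carry signal below the calling threshold.

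FBXO31, the receptor for cyclin D1 after DNA damage, went from 1.17 to 3.15 kb. Its promoter peak widened from 186 to 569 bp and a knockdown-only peak of 932 bp with a fold of 5.22 lay 4.22 kb upstream, a stretch it shares with MAP1LC3B. FBXO3, which targets FBXL2, went from 0.310 to 2.11 kb. Most of that was at CD59 and in intron 6, where CD59 had the nearest start, while its own start had a knockdown-only peak of 212 bp with a fold of 5.62. FBXL2 itself, chosen after its values were seen, gained a promoter peak of 468 bp and went from 0.327 to 2.13 kb. Among the members with the most control cover, FBXL18 went from 3.57 to 4.50 kb, FBXL5 from 2.72 to 3.52 kb and FBXO24 from 2.01 to 3.14 kb. FBXL18, which targets FBXL7, had most of its cover downstream, nearest to the start of TNRC18, where the local background was between 20.1 and 29.5 fragments, but its own promoter peak was also higher, with a fold of 5.56 in the control and 9.77 after knockdown.

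The 4 members with less cover differed by little. FBXO6, a receptor for misfolded glycoproteins, had a single control-only peak of 344 bp at MAD2L2, 16.8 kb from its start, and none after knockdown. FBXO43, the meiotic inhibitor of the anaphase-promoting complex also called EMI2, had a single control-only peak of 211 bp nearest to POLR2K. FBXO27, another glycoprotein receptor, had a control peak of 391 bp nearest to FBXO17 and a knockdown peak of 347 bp in its own intron 2, 1.00 kb from its start. FBXL17, a receptor that removes faulty BTB-domain dimers, had 1 promoter peak in each list, and it narrowed from 1.20 to 0.949 kb while its fold was 4.72 in the control and 6.53 after knockdown. In 3 of these 4 genes the control peak was therefore a small one that lay nearer to another gene.

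**Figure D2:**
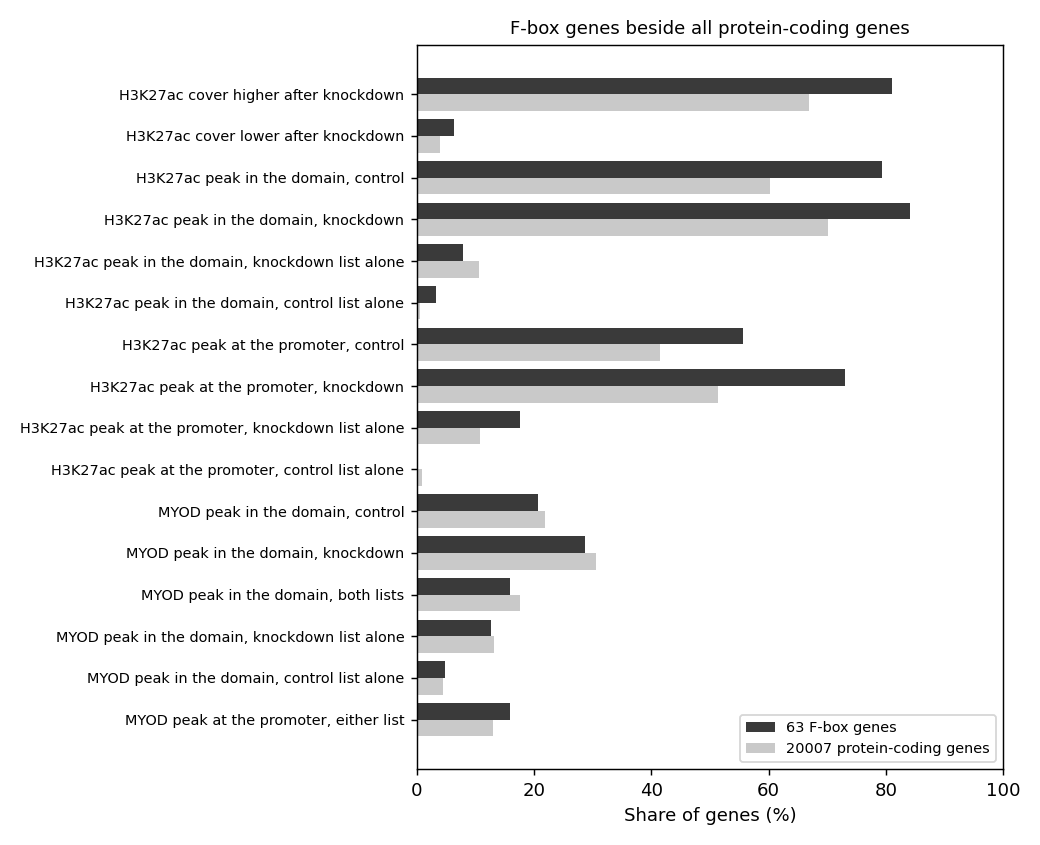
Share of genes in percent (x axis) that met each of 16 descriptions of peaks (y axis), with dark bars for the 63 F-box genes and light bars for all 20007 protein-coding genes. The bars for an H3K27ac peak in the domain or at the promoter are longer for F-box genes in each arm, and MYOD bars in the domain are nearly equal to those of all genes.

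For MYOD, the question was which F-box genes carry the factor before and after SKP2 knockdown. A MYOD peak lay in the domain of 13 members in the control and of 18 after knockdown, which is near the background of 21.9% and 30.6% of all genes. With the knockdown list shortened to the 5814 peaks of the control list the counts were 13 and 12. Shortening can only lower the knockdown count, and why the full lists differ was not tested. There were 10 members with a peak in both lists (all genes 17.5%), 8 with one in the knockdown list alone (all genes 13.2%) and 3 in the control list alone (all genes 4.39%). The 8 were FBXL12, FBXL14, FBXL17, FBXL18, FBXO32, FBXO36, FBXO41 and FBXO48, and the 3 were FBXL5, FBXO33 and FBXO42. The remaining 42 members had no MYOD peak in either list. A MYOD peak lay at the promoter in 10 members in at least 1 list (all genes 12.9%).

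Those domains held 16 control and 22 knockdown MYOD peaks. Of the control peaks 11 (68.8%, 44.4 to 85.8) were kept and 5 were control-only, and 11 of the knockdown peaks were kept and 11 were knockdown-only. Over the whole lists 64.1% of control and 44.1% of knockdown MYOD peaks were kept. With lists of equal length the domains held 16 and 14 MYOD peaks. Many of these peaks lay closer to another gene: the nearest protein-coding start was that of a member for 6 of 16 control and 10 of 22 knockdown peaks. The promoter of some gene held 8 of 16 and 14 of 22 of them. Over the MYOD peaks in the domains of all protein-coding genes the shares at a promoter were 26.7% and 30.7%.

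**Figure D3:**
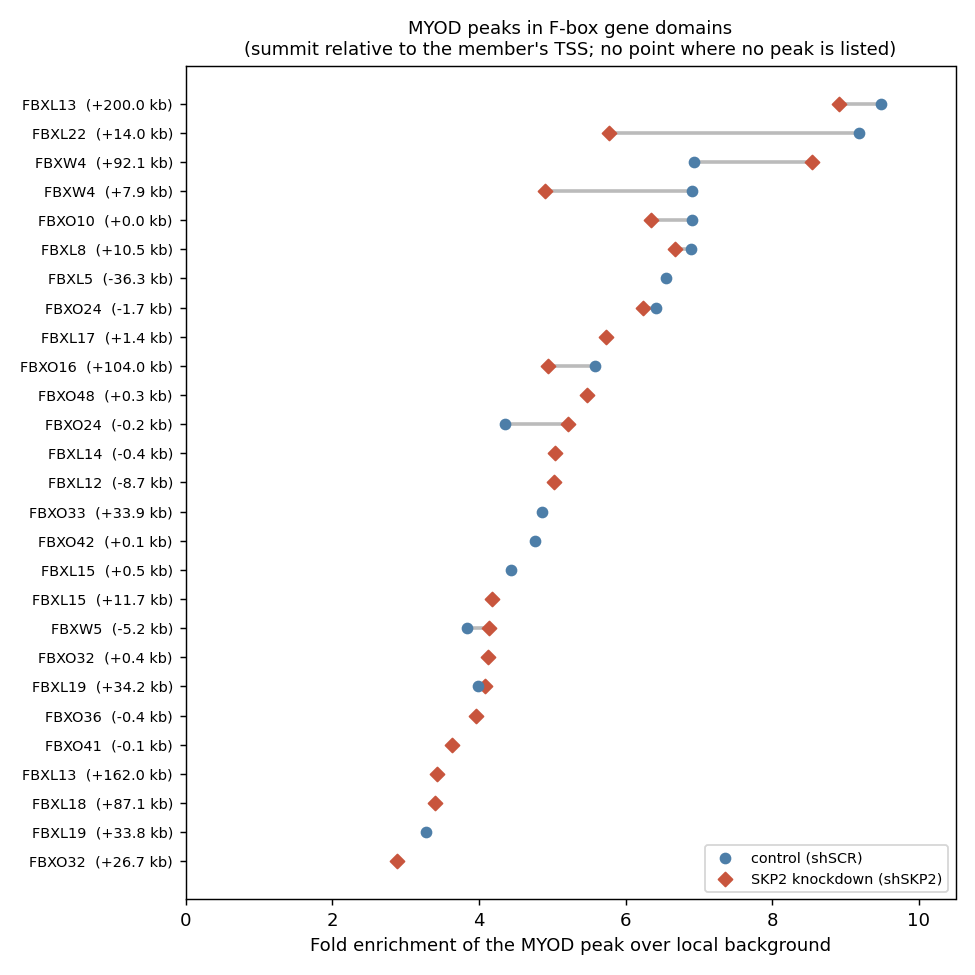
Fold enrichment of each MYOD peak in the F-box domains over its local background (x axis) at 27 sites, labelled by the member and the distance of the summit from its start in kb (y axis). Circles are the control library and diamonds the knockdown library, and a missing point means that no peak was listed. The highest folds are kept peaks, led by FBXL13 with 9.49 and 8.91, and the 11 knockdown-only peaks lie at 5.74 or below.

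FBXO10, which directs BCL2 to degradation, had MYOD right over its own start in both arms. The peak had a fold of 6.90 in the control, from a pileup of 26 fragments (95% Poisson interval 17.0 to 38.1), and of 6.35 after knockdown, from 28 fragments (18.6 to 40.5). The summit was 0.0330 kb downstream of the start in the control and 0.0340 kb upstream after knockdown, and 2 CAGCTG boxes lay within 100 bp. The intervals overlap almost wholly. H3K27ac did not overlap this MYOD site in either list. It lay in intron 1 instead, as 1 peak 214 bp wide in the control and 2 peaks 472 and 664 bp wide after knockdown, the latter 0.988 and 1.84 kb from the start.

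FBXO24 had 2 kept MYOD peaks near its start, in a promoter that it shares with LRCH4. The one 1.74 kb upstream had folds of 6.42 and 6.24. The one at the start had folds of 4.35 and 5.22, with its summit 0.234 kb upstream in the control and 0.0420 kb downstream after knockdown, so that only the knockdown summit had an E-box within 100 bp. Both were overlapped by H3K27ac in both lists. FBXW4 had 2 kept peaks that moved in opposite directions. In intron 1, 7.90 kb from its start, the fold was 6.90 in the control (pileup 34, 23.5 to 47.5) and 4.90 after knockdown (27, 17.8 to 39.3). At DPCD, 92.1 kb from the FBXW4 start, it was 6.93 (26, 17.0 to 38.1) and 8.54 (36, 25.2 to 49.8). The intervals overlap at both sites, and no H3K27ac peak overlapped either site in any list.

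FBXL13 carried the strongest MYOD peak of the family, in intron 17, with folds of 9.49 and 8.91 from 61 (46.7 to 78.4) and 56 (42.3 to 72.7) fragments. This site was 200 kb from the FBXL13 start and 38.7 kb from that of LRRC17, and both H3K27ac lists covered it. FBXL8 and FBXO16 owed their kept peaks to a neighbour. The FBXL8 peak, with folds of 6.89 and 6.68, lay in NOL3, and the FBXO16 peak, with folds of 5.59 and 4.94, lay 0.214 kb from the start of ZNF395.

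The control-only MYOD peaks were few. FBXL5, the iron-sensing receptor that removes IRP2, had the highest one, with a fold of 6.55 from 28 fragments (18.6 to 40.5), 36.3 kb upstream of its start and closer to FAM200B. FBXO33, which targets YB-1, had one in its last exon with a fold of 4.86 from 13 fragments (6.92 to 22.2). FBXO42, a receptor for p53, had one 67 bp from its start with a fold of 4.76 from 13 fragments (6.92 to 22.2), over a promoter with H3K27ac in both lists. FBXL15, which targets SMURF1, had one in intron 1 with a fold of 4.44 from 12 fragments (6.20 to 21.0). FBXL15 counts among the members with MYOD in both lists because of a separate knockdown-only peak at CUEDC2, 11.7 kb away.

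Knockdown-only MYOD peaks lay at the promoters of 6 members, of which FBXO32 is described with the muscle-linked genes. The same share over all genes was not computed, so this count has no background beside it. FBXL17 had one in its first coding exon, 1.40 kb from the start, with a fold of 5.74 from 19 fragments (11.4 to 29.7). FBXO48 had one 255 bp into intron 1 with a fold of 5.48 from 16 fragments (9.15 to 26.0). Its H3K27ac peaks of 337 and 414 bp were in the knockdown list alone, and the wider one was nearest to the start of APLF. Their -log10 p values of 6.64 and 8.23 were under 8.70, where the knockdown H3K27ac list ends at equal length. FBXL14, which removes the repressor SNAI1, had a knockdown-only MYOD peak 0.399 kb upstream with a fold of 5.04 from 16 fragments (9.15 to 26.0), beside H3K27ac peaks 284 and 306 bp wide in control and knockdown. The promoter peaks at FBXO36 and FBXO41 had folds of 3.96 and 3.64. The FBXO36 peak was nearest to the start of TRIP12. In lists of equal length, which end at a -log10 p of 8.06 for the knockdown, the peaks at FBXL17, FBXO48 and FBXL14 were still listed and those at FBXO36 and FBXO41 were not.

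The 38 MYOD peaks merged into 27 sites. H3K27ac overlapped 15 of them in the control list (55.6%, 37.3 to 72.4) and 19 in the knockdown list (70.4%, 51.5 to 84.1). Over the 7687 MYOD sites in the domains of all protein-coding genes the shares were 36.7% and 54.4%. With lists of equal length the share in the F-box domains was 52.4% in both arms, so the difference between arms was not seen there. At 15 sites the mark was in both lists, at 4 it was in the knockdown list alone, at 0 in the control list alone and at 8 in neither, beside 35.0%, 19.4%, 1.69% and 43.9% of the sites in all domains. With 27 sites, 0 control-alone sites leave a share of up to 12.5% within the Wilson interval. The sites that had the mark in the knockdown list alone were those at FBXL22, FBXO16, FBXO48 and FBXW5.

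Among the members linked to muscle, FBXO32 had the most new peaks and the others had few or none. The list comprised 7 genes, of which FBXL21 is annotated only as a pseudogene, so 6 were measured. H3K27ac cover was higher after knockdown in 4 of 6 (FBXO32, FBXL22, FBXO30 and FBXO25), and lower in 0. Over all genes the shares were 66.8% and 3.92%. MYOD peaks lay in the domain of FBXL22 in the control, and of FBXL22 and FBXO32 after knockdown. FBXO40, a muscle receptor for IRS1, and FBXO21, another atrophy-linked receptor, had no peak in any of the 4 lists.

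FBXO32 encodes atrogin-1, or MAFbx, the receptor induced in wasting muscle. Its H3K27ac cover was 0.263 kb in the control and 1.82 kb after knockdown, in 1 and 3 peaks. The peak in both lists lay in intron 4, 21.0 kb from the start, with folds of 3.18 and 3.97. Its -log10 p was 4.67 in the control, under the stated threshold of 5, and 8.74 after knockdown. The broadest was a knockdown-only peak of 1253 bp in intron 1, 3.10 kb from the start, with a fold of 4.18 and a -log10 p of 13.3. Another knockdown-only peak of 281 bp lay in intron 4, 24.3 kb from the start, with a fold of 3.10. Its -log10 p of 6.29 was under 8.70, where the knockdown H3K27ac list ends at equal length. No H3K27ac peak lay within 2 kb of the start in either list.

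MYOD had 0 peaks in the FBXO32 domain in the control and 2 after knockdown. The first lay in intron 1, 0.380 kb from the start, with a fold of 4.13 from a pileup of 22 fragments (13.8 to 33.3) over a background of 4.56, and the nearest E-box, CACCTG, was 72.5 bp from its summit. The second lay in intron 4, 26.7 kb from the start, with a fold of 2.88 from 12 fragments (6.20 to 21.0). Its -log10 p of 4.11 was under the threshold of 5 that the study's methods state, and it was not listed when the MYOD lists were set to equal length, whereas the first one was. The CACGTG box at this summit is an E-box variant also bound by other helix-loop-helix factors. Neither MYOD peak was overlapped by H3K27ac.

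FBXL22, a sarcomere-linked receptor found in heart and skeletal muscle, had a kept MYOD peak 14.0 kb downstream of its start, inside HERC1. FBXL22 is the nearest start to it. The fold was 9.18 in the control, from 22 fragments (13.8 to 33.3) over a background of 1.51, and 5.78 after knockdown, from 16 fragments (9.15 to 26.0) over a background of 1.94. The intervals of the pileups overlap, so these counts do not separate the arms. The H3K27ac peak beside this site was 282 bp wide in the control, with a fold of 4.63 and no overlap with MYOD. After knockdown its width was 708 bp, with a fold of 7.35 and an overlap. A second, knockdown-only H3K27ac peak of 237 bp lay 3.86 kb from the start. FBXO30, also called MUSA1 and linked to atrophy, had H3K27ac over its promoter in both arms, 0.936 and 1.27 kb. FBXO25, a receptor for cardiac transcription factors, had 1.12 and 1.68 kb in intron 8, where 2 control peaks were joined into 1. FBXO30 and FBXO25 had no MYOD peak.

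**Figure D4:**
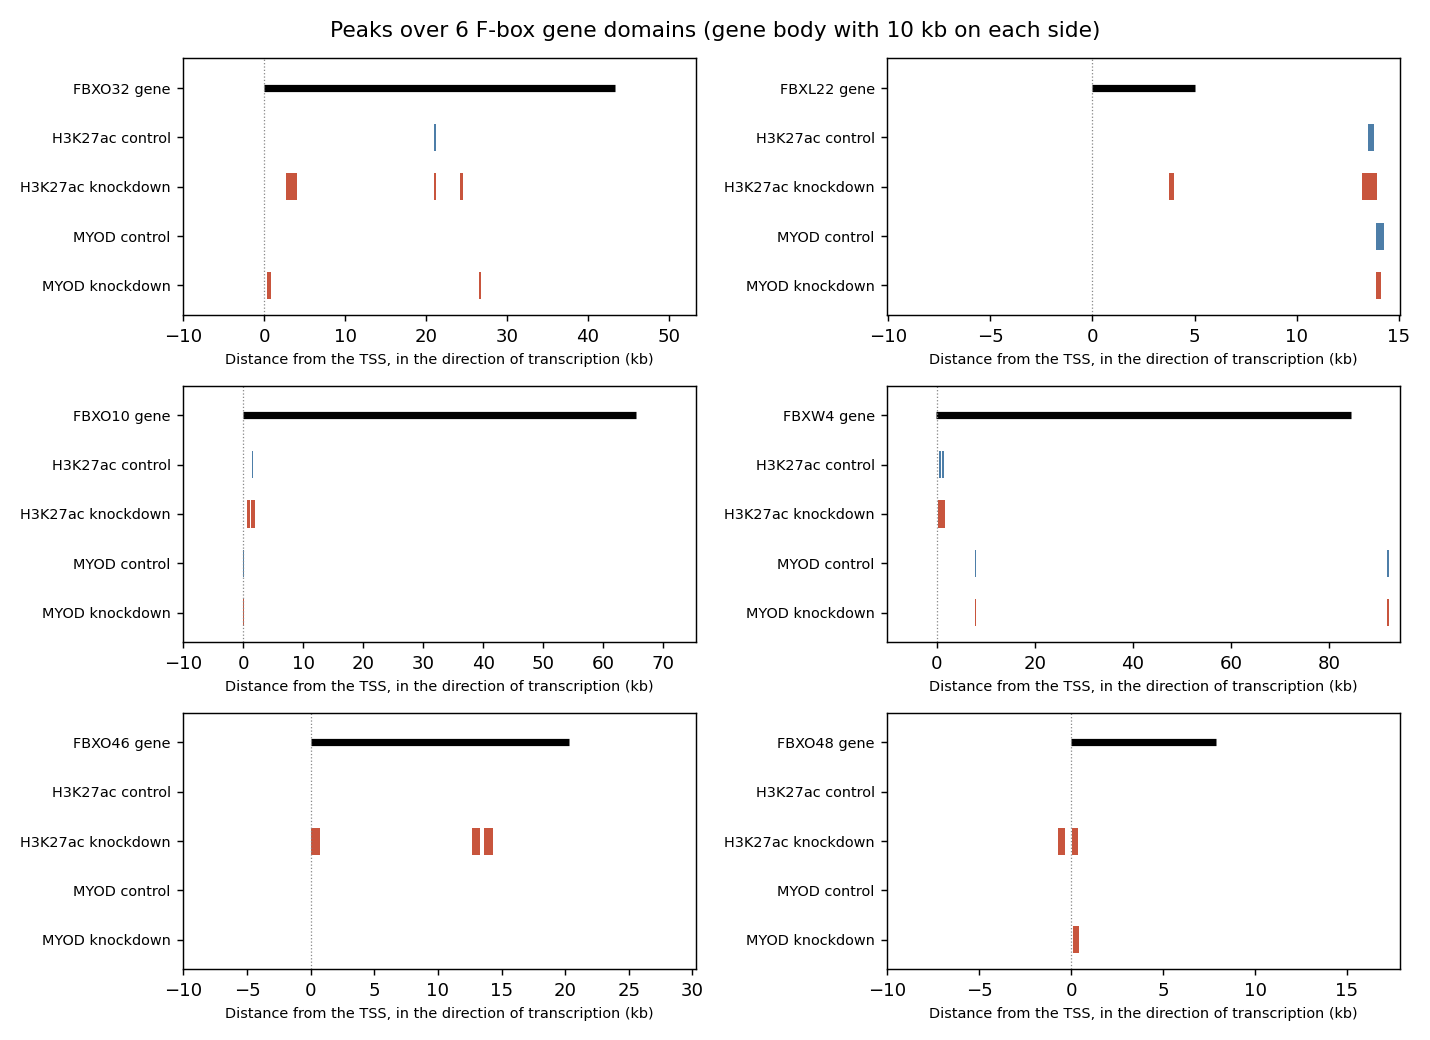
Peaks of the 4 lists over the domains of FBXO32, FBXL22, FBXO10, FBXW4, FBXO46 and FBXO48, by distance from the transcription start in kb (x axis), with the gene body as a black bar and 1 row per list (blocks under 0.25 kb are drawn at 0.25 kb). FBXO32 and FBXO48 have MYOD blocks in the knockdown row alone, FBXO10 and FBXW4 have them in both rows, and FBXO46 has H3K27ac after knockdown alone.

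The family's other roles were described in the same way. Of 10 members linked to the cell cycle and growth, 9 had more H3K27ac cover after knockdown and 1, FBXO43, had less. Promoter peaks lay in 8 in the control and 9 after knockdown. Over all genes 66.8% had more cover and 3.92% less, and promoter peaks lay in 41.5% and 51.4%. FBXW7, the receptor for cyclin E and MYC, had 0.623 and 0.850 kb, and its promoter peak had folds of 7.80 and 7.51. FBXO5, which restrains the anaphase-promoting complex as EMI1, had 0.973 and 1.39 kb and folds of 7.93 and 7.02. MYOD was in the domain of FBXO10 in the control, and of FBXO10 and FBXL12 after knockdown. The FBXL12 peak lay 8.67 kb upstream of the FBXL12 start and 0.168 kb from that of UBL5. Of 5 members that bind glycoproteins, FBXO17 had more cover, FBXO27 and FBXO6 had less, and FBXO2 and FBXO44 had no peak in any list. None of these 5 had a MYOD peak in the domain in either list (all genes 21.9% and 30.6%). Of 5 members that act on repressors or clock proteins, 4 had more cover, FBXL14, FBXL5 and FBXO11 among them, and FBXO45 had no peak. FBXO11 had 1.85 kb in the control and 3.05 kb after knockdown.

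By subfamily, cover was higher after knockdown in 27 of 36 FBXO, 15 of 17 FBXL and 9 of 10 FBXW genes. It was lower in 3, 1 and 0, and over all genes the shares were 66.8% and 3.92%. Median cover was 0.442 and 1.26 kb for FBXO, 0.495 and 1.71 kb for FBXL, and 0.477 and 1.10 kb for FBXW genes. MYOD peaks lay in 5, 6 and 2 domains in the control and in 7, 9 and 2 after knockdown, in the same order. Over all genes 21.9% and 30.6% had one. The 8 members with no peak in any of the 4 lists were FBXL7, FBXO2, FBXO21, FBXO39, FBXO40, FBXO44, FBXO45 and FBXW12.

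F-box genes whose symbols do not follow the naming rule were set beside the members. Of 8 measured, 6 had more H3K27ac cover after knockdown (all genes 66.8%), BTRC had less (all genes 3.92%) and NCCRP1 had no peak. An H3K27ac peak at the promoter was in the knockdown list alone in 5 of 8 (all genes 10.7%), SKP2 among them. SKP2, the gene targeted by the shRNA, had 0.867 kb of cover in the control and 1.65 kb after knockdown. No MYOD peak was listed in its domain in either arm. The paper reports MYOD at an intronic SKP2 enhancer in RD cells, from its earlier ChIP-seq data. A site missing from the present lists can still hold signal below the calling threshold. A peak list does not measure SKP2 RNA, so it is no check of the knockdown. BTRC, the beta-TrCP receptor that acts on beta-catenin and IκB, had 0.856 and 0.704 kb. CCNF, cyclin F, had a knockdown-only MYOD peak with a fold of 10.9, higher than any MYOD peak in a member's domain.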

How the data were processed

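MYOD and H3K27ac were profiled in RD cells with shSCR or shSKP2 (shSKP2.2 in the study's methods), 1 library each, grouped by sample title. Chromatin was cut with micrococcal nuclease. The submitters' processing notes name BWA (0.7.17), MACS3 and deepTools. Per the methods the authors called peaks per library against input and removed an exclusion list of problem regions. Whether Drosophila spike-in scaling entered the calls is not stated, so widths and list lengths do not measure absolute occupancy. The deposited fold is the ratio of the summit pileup to local background, the deposited -log10 p was computed for that summit, and the score deposited with it is 10 times as large. Total read numbers are not given. Pileup and background were solved from fold and -log10 p, within 0.001 for nearly all peaks. Between 2.41 and 4.13% of peaks lay under the stated -log10 p threshold of 5.

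Only chromosomes 1 to 22, X and Y were used, so 1 peak of each H3K27ac list was dropped. All peaks lay within the lengths of the hg38 chromosomes. The TSS was that of the GENCODE 44 canonical transcript. Cover, overlap and pileup code (Python 3.11.15, pandas 2.3.3, scipy 1.17.1) was tested on simulated data. With 1 library per group no test was run.

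Members and lists were chosen with earlier results of these data known. The rule for named genes took the muscle-linked list, the 10 highest MYOD folds, up to 8 members with promoter MYOD by fold, the 6 largest increases and decreases in cover (4 members decreased), the 4 highest-scoring control-only MYOD peaks, the 4 with the most control cover, and members without peaks. Other members named were picked after their values were seen. Alternatives were stricter peaks, lists of equal length, other domains and overlaps, and nearest-start assignment. The values of 1 member are not reported here, although it is included in all counts.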

Additional observations from a re-analysis of the deposited data

How the results depend on the processing

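No paired analysis was possible because each group has 1 library and the labels carry no replicate numbers. Of 151 alternative values, 81 stayed near the main value and 70 moved, and the cause was not tested beyond what each setting does by construction. That 0 changed sign says little, since nearly all are counts, kb or shares, which cannot be negative. The count of members with more cover stayed within 1.5 times of 51 under every setting tried. A pair of settings was added after seeing the data: with only the 2 kb around the TSS it was 42, and with only peaks nearest to the member's own TSS 45, with 4 members lower in each. Over all genes, cover in these settings was higher in 47.6% and 53.7% and lower in 4.54% and 5.17%.

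With peaks of -log10 p of at least 10, 1 member had less cover, control cover was 32.2 kb, control promoters with H3K27ac 23, and MYOD was in 8 domains in each arm, with 9 control and 10 knockdown peaks, 1 control-only and 2 knockdown-only, and 88.9% kept. H3K27ac peaks numbered 56 and 84, with 5 control-only and 37 knockdown-only. MYOD sites with H3K27ac came to 36.4% and 45.5%, CAGCTG to 77.8% and 80.0%, and CANNTG to 100% in both arms. With lists of equal length, 8 members had less cover, the difference was 31.8 kb, the knockdown had 14 MYOD peaks with 5 knockdown-only, H3K27ac peaks were control-only in 22 and knockdown-only in 27, 79.4% were kept, and CANNTG stood in 100% of knockdown peaks. The order of the arms turned in this setting for MYOD peaks (16 control and 14 knockdown), members with MYOD (13 and 12) and H3K27ac peaks (107 and 101), and the shares of MYOD sites with H3K27ac became equal (52.4%).

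With the gene body alone, cover was 28.6 and 57.6 kb (difference 29.0), MYOD was in 8 and 11 domains, with 9 and 14 peaks and 3 control-only, H3K27ac peaks were 71 and 90 with 36 knockdown-only, CAGCTG stood in 77.8% of control peaks and CANNTG in 100% of knockdown peaks. With 50 kb on each side, 7 members had less cover, cover was 89.2 and 176 kb (difference 86.4), MYOD was in 25 and 36 domains, with 38 and 57 peaks, 14 control-only and 33 knockdown-only, H3K27ac peaks were 192 and 253 with 20 control-only and 105 knockdown-only, and MYOD sites with H3K27ac 35.2% and 49.3%. At a reciprocal overlap of 50%, 57 control and 91 knockdown H3K27ac peaks were in a single list and 46.7% were kept. With peaks whose nearest start is a member's, MYOD was in 6 and 9 domains, with 6 and 10 peaks, 3 control-only and 6 knockdown-only, and H3K27ac peaks were 51 and 66, with 5 control-only and 26 knockdown-only. With pileups of 8 to 61 fragments at these MYOD peaks, small differences in fold between arms are not resolved.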
